A study of Mus musculus with 2 samples.

Results

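The miR-449 and miR-34 genes of the mouse form 1 microRNA family at 3 loci, and their reads were counted in 2 libraries of embryonic hindbrain. The family was taken by gene symbol: Mir449a, Mir449b and Mir449c in an intron of Cdc20b, Mir34b and Mir34c as another cluster, and Mir34a alone. All 6 genes were found among the 1973 gene rows of each deposited table, matched by Ensembl identifier to GENCODE M21. The rule uses gene symbols and no measured value, but the family was picked with earlier results of these data known. Each library was made from total RNA of hindbrain of B6NCrl mice at embryonic day 15.5, with males and females pooled and no treatment, transgene or mutation named in the labels. Tissue of 78 embryos went into the pool of replicate 1, and tissue of 62 embryos into that of replicate 2. There is 1 group, so the levels and the spread between the 2 pools are what the design gives.

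A microRNA is cut from a hairpin and guides Argonaute proteins to messenger RNAs that pair with its seed, bases 2 to 8. The miR-449 and miR-34b/c genes are known for high expression in cells that carry many motile cilia, such as those of airways, oviduct, choroid plexus and ependyma. Mice lacking both clusters form too few cilia in airways and oviduct. Mir34a is expressed more broadly and is a known transcriptional target of p53. Cdc20b, the host of the miR-449 genes, is itself known for its expression during formation of multiciliated cells. The hindbrain at this age contains the choroid plexus of the fourth ventricle, unless a dissection removes it.

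The sequences are shown first because the seed is what makes these 3 loci 1 family. The RefSeq table (GRCm38.p6) held 9 mature sequences for 5 of the members. For miR-34c-5p and for Mir449b it held none. They are printed 5′ to 3′ with the seed in capitals, beginning with the arm from the 5′ side of each hairpin:
mmu-miR-34a-5p: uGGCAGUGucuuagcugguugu
mmu-miR-34b-5p: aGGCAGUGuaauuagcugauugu
mmu-miR-449a-5p: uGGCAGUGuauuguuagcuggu
mmu-miR-449c-5p: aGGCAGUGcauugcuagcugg

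All 4 have the seed GGCAGUG. Among the 1738 mature mouse sequences of the table, these 4 were the only ones with it. Outside the seed they differ. miR-34a-5p and miR-449a-5p are identical over their first 9 bases and are then 6 edits apart in all, counting substitutions, insertions and deletions. miR-34a-5p and miR-34b-5p are 4 edits apart, as are miR-449a-5p and miR-449c-5p. The 7 letters of the seed also occur in 17 of the 1005 mouse hairpins of the table (1.69%, transcribed strand), among them the 5 member hairpins that the table holds.

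The arms from the 3′ side do not share 1 seed, and they are shown for that contrast, again with bases 2 to 8 in capitals:
mmu-miR-34a-3p: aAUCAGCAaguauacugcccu
mmu-miR-34b-3p: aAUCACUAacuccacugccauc
mmu-miR-34c-3p: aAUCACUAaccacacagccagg
mmu-miR-449a-3p: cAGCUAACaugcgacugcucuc
mmu-miR-449c-3p: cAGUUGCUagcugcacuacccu

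Only miR-34b-3p and miR-34c-3p have a 3p seed in common, AUCACUA, and they are identical over their first 10 bases. Those of miR-34a, miR-449a and miR-449c each differ from it and from each other. A deposited count covers the whole hairpin and does not separate the arms. The hairpin of Mir449a, the most abundant member, shows what such a count spans, with the mature arms in capitals:
Mir449a hairpin: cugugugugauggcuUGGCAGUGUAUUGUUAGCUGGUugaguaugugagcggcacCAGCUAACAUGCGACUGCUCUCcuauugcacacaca

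Exact letters that a member shares with other loci were counted, because reads with more than 1 possible origin are listed apart from the genes in these tables. Among the 2202 microRNA genes of M21, searched on either strand, the longest exact stretch that any member shares with another gene was 14 bases, for Mir449a. For Mir449b, Mir449c and Mir34a it was 12 bases, and for Mir34b and Mir34c none of 12 bases or more was found. All of these are shorter than the mature arms, which are 21 to 23 bases long. This search covers annotated microRNA genes and not the rest of the genome. It counts exact letters only, so it does not show how reads would be placed where mismatches are allowed.

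In build mm10 (GRCm38) the miR-449 genes lie on chromosome 13, on the plus strand, in the order Mir449c (113035983 to 113036091), Mir449b (113037419 to 113037498) and Mir449a (113037534 to 113037624). All 3 lie in intron 2 of Cdc20b (113035111 to 113091195), on its strand, in each of its 5 annotated transcripts that reach across them. A gap of 1327 bases separates Mir449c from Mir449b, and 35 bases separate Mir449b from Mir449a. Mir34b (51103562 to 51103645) and Mir34c (51103034 to 51103110) lie on the minus strand of chromosome 9, 451 bases apart, with Mir34b first in the direction of transcription. On the opposite strand this place is intron 1 of 1 annotated transcript of Btg4. Mir34a (chromosome 4, 150068454 to 150068555, plus strand) lies in no intron of an annotated gene, and its last 17 bases overlap an exon of Gm37795, a transcript of unsettled type on the same strand.

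The depth was similar in both libraries. Replicate 1 held 8327917 reads and replicate 2 held 10507754, of which 47.3% and 46.1% lay on the own strand of a microRNA gene. Those 3937840 and 4839647 reads are the base of all levels, given as CPM (counts per 1000000 of them). Reads placed at several loci (35.4% and 34.2%) are listed apart and belong to no gene. By counting error, a gene listed at 0 could have up to 3 reads, which is 0.762 CPM in replicate 1 and 0.620 CPM in replicate 2. Such limits and all intervals here treat reads as independent counts and cover counting error only. The counts carry no molecular identifiers, so copies of 1 molecule were not told apart, and the intervals may be too narrow even for that error. A list of hindbrain and brain microRNAs is given as levels only. It was chosen with earlier results of these data known, so it cannot check the tissue label. Mir10a of the Hox clusters was second of all genes at 71261 ± 14943 CPM (SD, n = 2). Mir10b was at 39376 ± 13012, and Mir149 at 20337 ± 297. Of the same list, Mir137 was at 8360 CPM, Mir135b at 7686 CPM and Mir9-3 at 576 CPM. The other genes of the list had few reads: Mir124a-1, Mir124a-2 and Mir124a-3, known from neurons, were at 3.95, 1.90 and 2.20 CPM. Mir9-2 was at 2.52 CPM. Both miR-124 and miR-9 come from several gene copies, and reads that fit more than 1 copy belong to no gene here. The counts of single copies therefore need not give the level of miR-124 or miR-9. Why the counts of these copies are low was not tested. The rows hold microRNA genes alone, so the protein markers of ciliated cells were not measured, and the cell type that gives the family's reads was not tested. In such bulk libraries, fewer cells of a type and less RNA per cell cannot be told apart.

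The 6 genes together held 14893 reads in replicate 1 and 23397 in replicate 2. That is 0.378% of the gene reads (95% exact Clopper-Pearson interval 0.372 to 0.384) and 0.483% (0.477 to 0.490). Nearly all of it came from 1 gene of each cluster, Mir449a and Mir34c, as the plot of levels shows. Mir449a alone made up 65.1% (64.3 to 65.8) and 67.1% (66.5 to 67.8) of the family's reads. Mir34c made up 31.6% (30.8 to 32.3) and 29.9% (29.3 to 30.5). The other 4 genes shared the remainder.

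**Figure D1:**
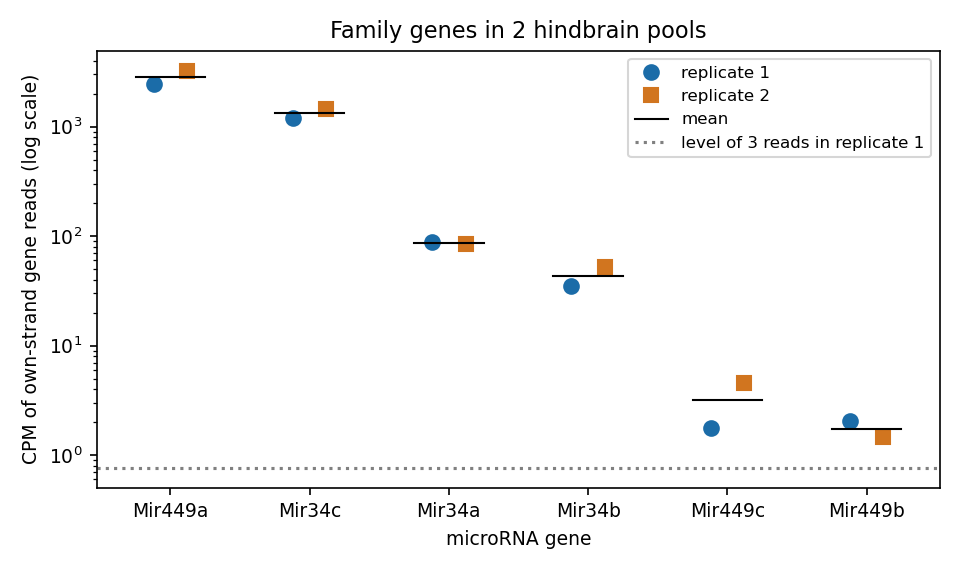
CPM of own-strand gene reads on a log axis for the 6 family genes, with replicate 1 as circles, replicate 2 as squares and the mean as a line; the dotted line is the level of 3 reads in replicate 1. Mir449a (2461 and 3246 CPM) and Mir34c (1193 and 1446 CPM) stand far above the other genes, and Mir449b and Mir449c lie close to the limit.

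Mir449a (ENSMUSG00000065575.1), the last hairpin of the Cdc20b intron, had 9692 reads in replicate 1 and 15711 in replicate 2, or 2461 and 3246 CPM. Its mean of 2854 ± 555 CPM placed it 57th of the 1973 genes, of which 721 had a read in either library. Mir449c (ENSMUSG00000076146.1) had 7 and 22 reads, or 1.78 and 4.55 CPM. Mir449b (ENSMUSG00000078027.1) had 8 and 7 reads, or 2.03 and 1.45 CPM. These last counts are above what a count of 0 allows but small, and the pools overlap between the genes, so the order of Mir449b and Mir449c could not be read. The Cdc20b intron thus gave its reads almost wholly from 1 of its 3 hairpins: Mir449a held 99.8% of them in each library (99.75 to 99.91 in replicate 1, 99.74 to 99.88 in replicate 2). In reads, Mir449a exceeded Mir449c 1385-fold in replicate 1 (672 to 3445) and 714-fold in replicate 2 (472 to 1140), and it exceeded Mir449b 1212-fold (615 to 2807) and 2244-fold (1089 to 5583). The intervals of the 2 libraries overlap for both pairs.

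Mir34c (ENSMUSG00000065587.1) had 4699 and 6996 reads, or 1193 and 1446 CPM, a mean of 1319 ± 178 and rank 85. Mir34b (ENSMUSG00000065492.1), transcribed just before it, had 138 and 252 reads, or 35.0 and 52.1 CPM, a mean of 43.6 ± 12.04 and rank 254. Both pools showed Mir34c far above Mir34b, with 34.1 reads of Mir34c for each read of Mir34b in replicate 1 (28.7 to 40.6) and 27.8 in replicate 2 (24.5 to 31.6). Mir34b had a share of 2.85% (2.40 to 3.36) and 3.48% (3.07 to 3.92) of its cluster, a larger part than that of Mir449b or Mir449c in theirs. The intervals of both shares lie above those of the lesser miR-449 genes, the highest of which was 0.140% (0.0876 to 0.212) for Mir449c in replicate 2. The drawing of hairpins along each cluster shows that in both the last hairpin in the direction of transcription had the most reads.

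**Figure D2:**
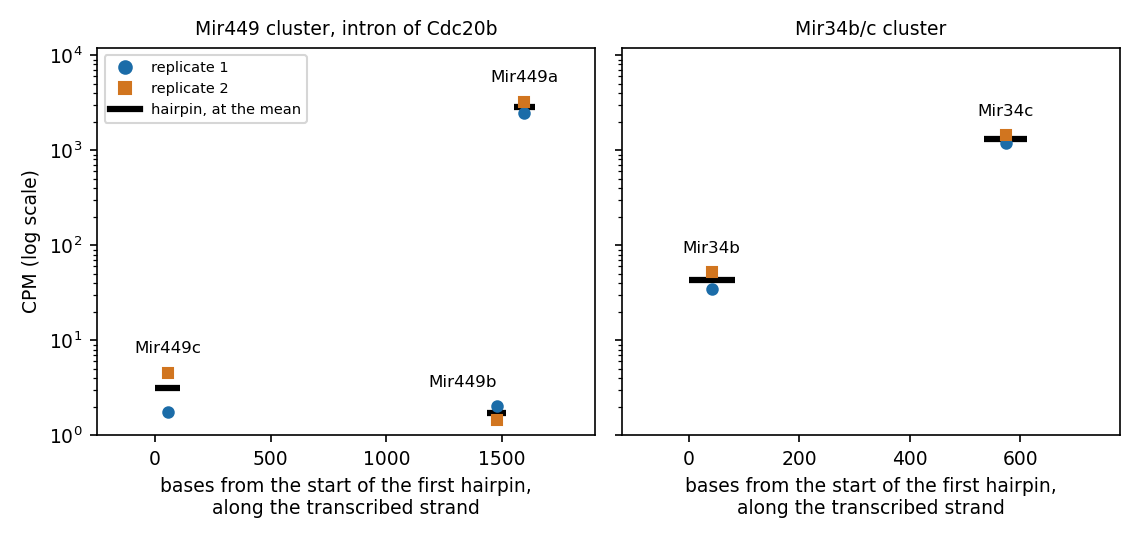
Position of each hairpin in bases from the start of the first hairpin of its cluster, along the transcribed strand, against CPM on a log axis; thick lines are the hairpins at their mean, circles are replicate 1 and squares replicate 2. Mir449a, 35 bases after Mir449b, was at 2461 and 3246 CPM while Mir449b was at 2.03 and 1.45 CPM, and Mir34c lay above Mir34b in both.

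Mir34a (ENSMUSG00000065493.1), the p53 target at its own locus, had 349 and 409 reads. Its level was 88.6 CPM in replicate 1 and 84.5 in replicate 2, a mean of 86.6 ± 2.91 and rank 215. Of all members it had the smallest spread between the pools, an SD of 3.36% of its mean against 13.5% for Mir34c and 19.5% for Mir449a. In reads Mir34c exceeded Mir34a 13.5-fold in replicate 1 (12.1 to 15.1) and 17.1-fold in replicate 2 (15.5 to 18.9). Mir34a in turn exceeded Mir34b 2.53-fold (2.07 to 3.10) and 1.62-fold (1.38 to 1.91), so this order held in both pools, with a ratio that differed between them beyond counting error.

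From the highest to the lowest mean the order was Mir449a, Mir34c, Mir34a, Mir34b, Mir449c and Mir449b. The values of neighbours in this order did not overlap between genes except for Mir449c and Mir449b. A microRNA read stands for a whole short molecule, so levels were not divided by length, and the order was the same per 100 bases of hairpin (3136, 1714, 84.9, 51.9, 2.90 and 2.17 CPM per 100 bases). How evenly the libraries recover different microRNA sequences was not measured. The orders and ratios between genes are therefore those of reads and need not be those of molecules. The values of different genes are paired by library. Even unpaired, with 2 values against 2, an exact permutation test cannot give a two-sided p below 0.333, so no p is given for these orders. The rank plot places the genes among all that had a read. Between loci, the Cdc20b cluster as a whole had 2.01 reads for each read of the Mir34b/c cluster in replicate 1 (1.94 to 2.08) and 2.17 in replicate 2 (2.11 to 2.23).

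**Figure D3:**
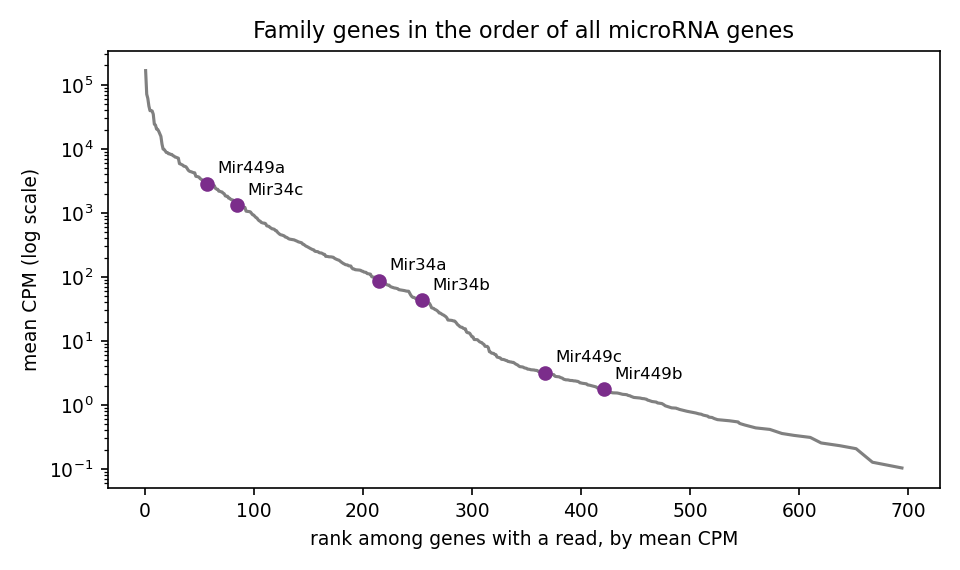
Mean CPM on a log axis against rank for the microRNA genes with a read (grey line), with the family as labelled points. Mir449a (rank 57) and Mir34c (rank 85) lie in the upper part, Mir34a (215) and Mir34b (254) in the middle, and Mir449c (367) and Mir449b (421) in the tail.

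No member had a read on the strand opposite to its gene in either library, which allows up to 3 reads each. Opposite-strand reads were present in 67 of the 1973 gene rows. The reads of Mir34b and Mir34c therefore lay on the family's strand and not on that of Btg4.

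The members were then compared between the 2 pools, to see how far each level repeats. The log2 ratio of replicate 2 over replicate 1 was taken after TMM scaling, with an exact binomial test adjusted by Benjamini-Hochberg over all 426 genes that reached 10 reads in a library. This test compares these 2 libraries and not any conditions, and covers counting error only. Of the 6 members 5 passed the read minimum, and Mir449b did not. Among those 5, 3 were higher in replicate 2 past the threshold of 0.05 and none was lower. Over all 426 genes 65 (15.3%) were higher and 88 (20.7%) lower. The 3 members come from 2 clusters, and genes of 1 cluster are not independent.

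Mir449a differed by a log2 ratio of 0.38 (95% exact interval 0.35 to 0.42; adjusted p = 8.22e-94 by the exact binomial test), or 1.30-fold. Mir34c differed by 0.26 (0.21 to 0.31; adjusted p = 9.06e-21), or 1.20-fold. Mir34b differed by 0.55 (0.25 to 0.86; adjusted p = 0.000981), or 1.47-fold. Mir449c, with 7 and 22 reads, had a log2 ratio of 1.34 and a wide interval of 0.06 to 2.81, and it did not pass (adjusted p = 0.0910). Mir34a, the member outside both clusters, had a log2 ratio of -0.09 (-0.30 to 0.12; adjusted p = 0.603). Mir449b, untested, had a log2 ratio of -0.51 with an interval of -2.20 to 1.15. The median over the 5 tested members was 0.38, and over all genes tested it was -0.01.

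None of the members was both past the threshold and at least 1.5-fold higher, as 15 of 426 genes (3.52%) were. Mir34b, at 1.47-fold, lay just under that fold with an interval that reaches past it, and Mir449c, at 2.53-fold, lay above it but did not pass the test. Of the 208 genes whose mean reached 100 CPM, and whose log2 ratios ran from -0.51 to 0.67 with an SD of 0.18, 7 had a ratio above that of Mir449a and 12 had one above that of Mir34c. The biological coefficient of variation between the pools, estimated by edgeR over all tested genes, was 10.5%. With a coefficient of variation of 0.1 allowed for every gene, edgeR's exact test called 6 of 426 genes (1.41%) and no member, and the adjusted p was 0.617 for Mir449a, 0.933 for Mir34c and 0.552 for Mir34b. The value of 0.1 was assumed, and it lies close to the estimate of 10.5% from the same 2 libraries that the test compares. The loss of most calls thus follows largely from how this value was set. It says nothing of how stable these 3 ratios would be in other pools.

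The intervals of Mir449a and Mir34c did not overlap, nor did either overlap that of Mir34a. The share of Mir34a among the family's reads was 2.34% (2.11 to 2.60) in replicate 1 and 1.75% (1.58 to 1.92) in replicate 2. The interval of Mir34b overlapped those of Mir34c and Mir449a.

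Genes of other cell types moved between the same pools, and they are given as levels beside the family. The choroid plexus list held Mir204, in an intron of Trpm3, with Mir211 and the Htr2c intron genes Mir448, Mir764, Mir1264, Mir1298 and Mir1912. All 7 of its genes had reads and were tested, and their summed level was 4711 CPM in replicate 1 and 6133 in replicate 2. Of the 7, 4 were higher in replicate 2 past the binomial threshold and none was lower, with a median log2 ratio of 0.21. Over all 426 genes tested, 15.3% were higher and 20.7% lower, which is the background for the counts of every list. Mir1298 had 2299 and 3069 CPM and a log2 ratio of 0.40 (0.36 to 0.44), Mir204 had 1917 and 2419 CPM and 0.32 (0.28 to 0.36), and Mir448 had 289 and 407 CPM and 0.48 (0.37 to 0.59). The intervals of these ratios overlap that of Mir449a, as the plot of ratios shows, though Mir448 lay far below Mir449a in level. Such overlap was not particular to this list. Of the hindbrain and brain list, Mir10a (0.41 to 0.42) and Mir9-3 (0.34, 0.25 to 0.42) overlapped Mir449a too, as did copies of few reads with wide intervals. Mir10b, Mir137, Mir149 and Mir135b did not. Mir1264 had a log2 ratio of 0.21 (0.07 to 0.35). With few reads, Mir211 had 0.19 (-0.96 to 1.39), Mir764 had -0.21 (-1.02 to 0.60) and Mir1912 had -0.24 (-1.22 to 0.75). For each read of Mir204 there were 1.28 reads of Mir449a in replicate 1 (1.25 to 1.32) and 1.34 in replicate 2 (1.31 to 1.37), and 0.622 (0.600 to 0.646) and 0.598 (0.580 to 0.616) of Mir34c. The part of choroid plexus in the family's ratios was not tested.

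**Figure D4:**
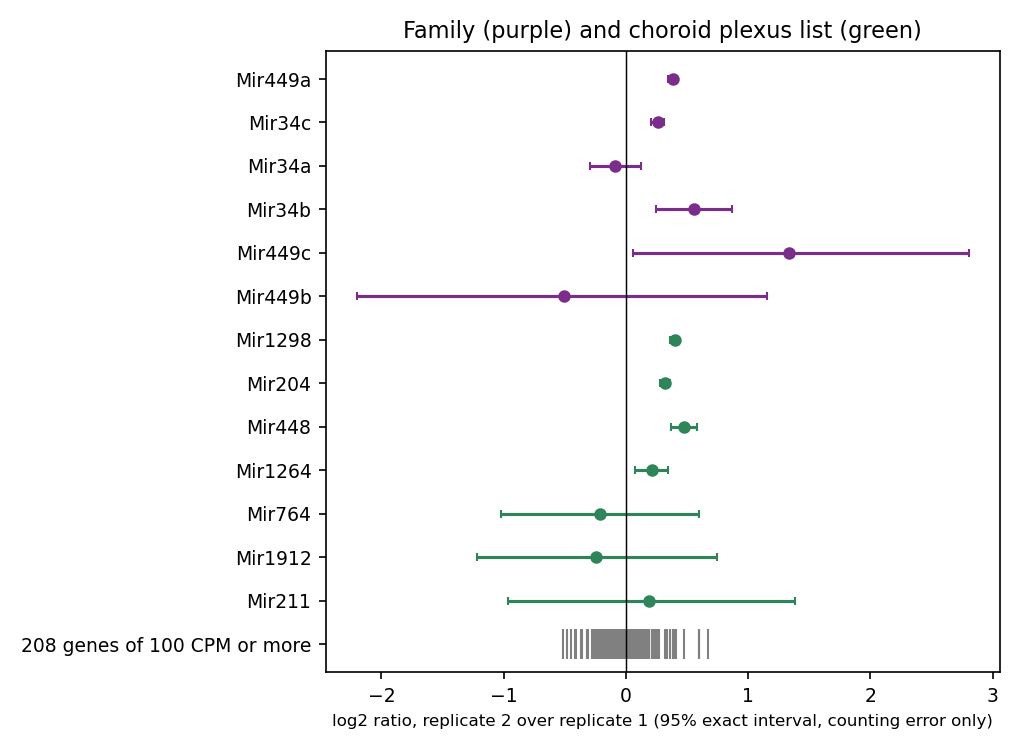
Log2 ratio of replicate 2 over replicate 1 after TMM scaling, with 95% exact intervals for counting error, for the 6 family genes (purple), the 7 choroid plexus list genes (green) and, as grey ticks, the 208 genes of at least 100 CPM. Mir449a (0.38), Mir34c (0.26), Mir1298 (0.40) and Mir204 (0.32) lie to the right of most ticks, Mir34a (-0.09) lies among them, and genes of few reads have wide intervals.

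In the epithelial list of the miR-200 genes, Mir203 and Mir205, 2 of 7 tested genes were higher and none lower (median 0.19, summed level 566 and 653 CPM). Its 3 highest members were Mir203 (458 and 529 CPM), Mir429 (39.4 and 49.8 CPM) and Mir205 (33.5 and 25.8 CPM), so the whole list lay below Mir34c. Of the blood, vessel and mesenchymal lists, some genes were lower in replicate 2 and none was called higher. Both erythroid genes, Mir451a and Mir144, were lower in replicate 2 (summed level 173 and 125 CPM), as was endothelial Mir126a (25702 and 22600 CPM). Of 3 leukocyte genes (summed level 478 and 377 CPM), Mir223 (223 and 158 CPM) and Mir155 (172 and 146 CPM) were lower, and Mir150 (83.3 and 72.5 CPM) did not pass. Of 5 tested mesenchymal genes (6623 and 5913 CPM over all 6) 3 were lower, among them Mir143 and Mir199b (130 and 67.8 CPM), while Mir214 (229 and 219 CPM) and Mir145a (79.2 and 80.8 CPM) did not pass. No gene of these lists stood at 0 in either library. Of 10 tested genes of the hindbrain and brain list, 4 were higher and 2 lower (median 0.30; 127740 and 167474 CPM), with Mir10a at a log2 ratio of 0.41 (0.41 to 0.42) and Mir10b at 0.67 (0.66 to 0.68). Their part in the family's ratios was not tested either.

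Mir34a shares its regulation by p53 with other microRNA genes, and these were set beside it. Of the 7 genes of that list 6 were tested, none was higher in replicate 2 and 1 was lower, with a median log2 ratio of -0.01. Of all genes tested 15.3% were higher and 20.7% lower, so 1 of 6 lower is near the background. The one that was lower was Mir143, known also from smooth muscle, at 6174 and 5540 CPM and a log2 ratio of -0.17 (-0.20 to -0.15). Mir107 had 2036 and 2017 CPM (log2 ratio -0.03, -0.07 to 0.01) and Mir145a 79.2 and 80.8 CPM (0.01, -0.21 to 0.23). Mir145a was thus close to Mir34a in level, while Mir143 and Mir107 were more than 10 times higher than Mir34a.

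Over the 2 libraries, the gene whose levels were most like those of Mir449a was Mir1298, at a Euclidean distance of 0.127 on the log2(CPM + 1) scale. Mir324 (0.188; 2754 and 3038 CPM) and Mir1983 (0.206; 2481 and 2814 CPM) followed. The gene most like Mir34c was Mir128-2 (0.0233; 1186 and 1424 CPM), followed by Mir138-1 (0.110; 1206 and 1341 CPM) and Mir101b (0.161; 1290 and 1333 CPM). With 2 libraries this likeness describes level and ratio together and nothing further.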

How the data were processed

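MicroRNA sequencing covered 2 libraries of 1 group, biological replicates per the labels. The authors deposited raw read counts per gene on build mm10 with annotation M4, per the authors' notes beside the tables. For the aligner, the trimming and the counter, the answer is not given in the sources used here. The deposited counts come for both strands together and for each strand. The tables have no header, and of the single-strand columns the one with more reads was used as own strand. Rows naming no gene entered neither library sizes nor tests (unmapped 13.7% and 15.8% of reads, outside genes 2.56% and 2.96%).

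Symbols and positions came from GENCODE M21 by identifier without version (1894 of 1973 matched), and mature sequences from RefSeq (GRCm38.p6). CPM used own-strand gene totals. Ratios used TMM (edgeR 4.0.16, R 4.3.3), a minimum of 10 reads in at least 1 library, exact conditional binomial tests and 95% exact intervals (scipy 1.17.1), with Benjamini-Hochberg adjustment. A replicated edgeR quasi-likelihood test needs more than 1 library on each side. Alternatives were DESeq2 1.42.0 size factors, other totals, other minimums, both strands and edgeR's exact test with an assumed variation. The test was checked on simulated data. The genes named are the members, at least the 3 highest of each list, and the 3 nearest to Mir449a and Mir34c with 1 CPM added. Mir9-1, on the hindbrain and brain list, was not analysed here. The members and lists were chosen with earlier results of these data known.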

Additional observations from a re-analysis of the deposited data

How the results depend on the processing

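Under other scalings (DESeq2 size factors, own-strand totals, all reads), both strands and other read minimums, each tested member kept its direction and its side of the threshold, except that Mir449c has too few reads for a minimum of 100. Only the assumed variation ended calls: with edgeR's exact test at a coefficient of variation of 0.1 or 0.2, Mir449a (log2 ratio 0.38), Mir34b (0.55) and Mir34c (0.26) were no longer past the threshold. It left 4 genes higher and 2 lower at 0.1, against 65 and 88 by the binomial test, and 0 in either direction at 0.2, with 12 at an unadjusted p under 0.05. Those called at 0.1 that were higher were all at least 1.5-fold so (4, against 15), and a minimum of 100 reads left 8 such genes. With all reads as the base of CPM rather than gene reads, levels fell to 1332 for the Mir449 cluster, 635 for the Mir34b/c cluster, 40.4 for Mir34a and 2007 for the 6 genes. Without replicate 1 or without replicate 2 the level is that of the remaining library: 2465 to 3252 CPM (0.247% to 0.325%) for the Mir449 cluster, 1228 to 1498 CPM (0.123% to 0.150%) for Mir34b/c, 84.5 to 88.6 CPM for Mir34a and 3782 to 4834 CPM (0.378% to 0.483%) for the 6 genes, and ratios of 2.01 to 2.17 between the clusters, 714 to 1385 for Mir449a over Mir449c and 27.8 to 34.1 for Mir34c over Mir34b. No paired analysis was possible because the series has 1 group. Depth limits Mir449b and Mir449c, each with at most 22 reads.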
